A study of Homo sapiens with 5 samples.

Results

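Integrins are cell-surface receptors made of 1 alpha and 1 beta chain, and the chains measured here were ITGB1, ITGB3, ITGB4, ITGAV, ITGA7 and ITGAM. They were taken by name, as every probe annotated to those 6 genes, and each gene had 1 probe printed as 4 spots. They were thus 6 of the 3048 probes and 6 of the 2078 named genes on a cancer and apoptosis oligonucleotide array.

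The cells were SK-MEL28, an established human melanoma line grown as a monolayer. Each of 5 two-colour arrays set RNA of treated cells, labelled with Cy5, against RNA of untreated cells, labelled with Cy3. On 3 arrays the treated cells had received cisplatin, a DNA-crosslinking drug, and on 2 they had received cisplatin with electroporation (electrochemotherapy). The labels describe a train of 8 pulses at 1 Hz, each lasting 100 µs at a field of 1300 V/cm, and then 5 min of rest at room temperature. All cells were detached with trypsin before RNA was isolated. The sources used here state neither the cisplatin dose nor the time from treatment to RNA isolation. There was no array of electroporation without cisplatin and no array with the dyes exchanged, so treatment and dye cannot be told apart in a ratio to untreated cells. A dye preference that is constant for a probe cancels in the difference between treatments.

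Beta 1 pairs with many alpha chains and makes most of the receptors for laminin, collagen and fibronectin. Beta 3 pairs with alpha V in the vitronectin receptor, which is well known from invasive melanoma, and beta 4 pairs with alpha 6 in the laminin receptor of hemidesmosomes. Alpha 7 forms a laminin receptor with beta 1 and is best known from skeletal muscle, and alpha M pairs with beta 2 on myeloid leukocytes.

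The chains did not move as a group. ITGA7 had ratios above 0 on all 5 arrays and ITGB4 below 0 on all 5. ITGB1 was low on the second electroporation array and between -0.14 and 0.13 on the other 4. ITGAM was low in the combination group, but on its second array this came from 1 of 4 spots. ITGAV and ITGB3, both measured by dim probes, had values close to 0 on every array in the ratios used here. None of the 6 passed the test across all probes, in either treatment or in the difference between them.

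**Figure D1:**
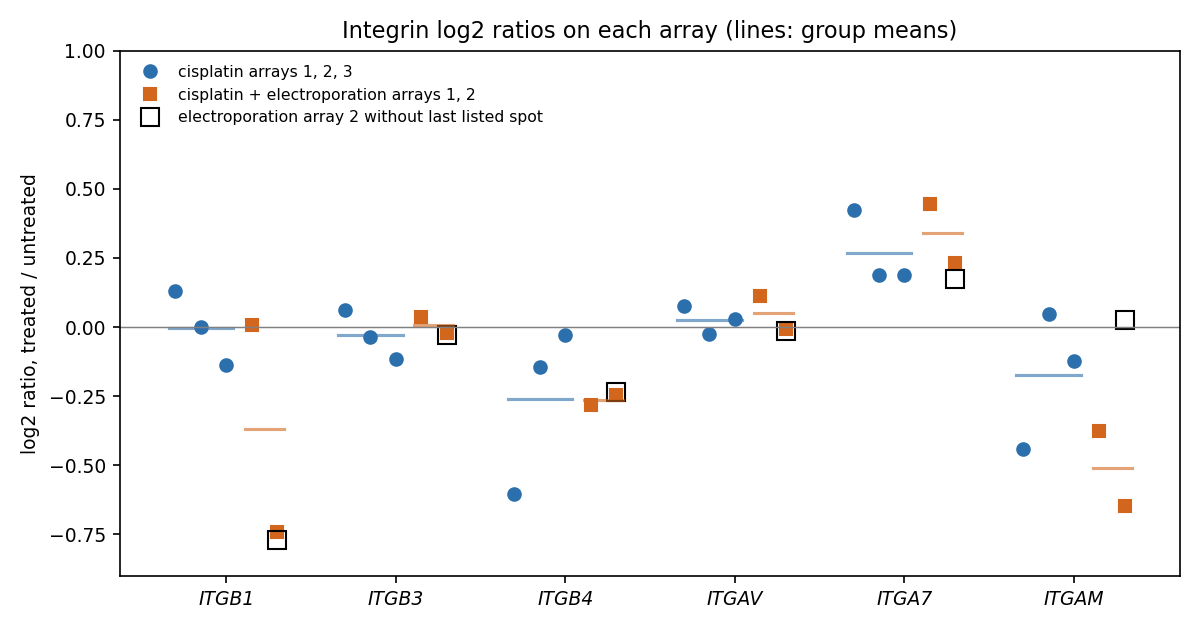
Log2 ratio of treated to untreated cells (vertical axis) for each integrin chain, with the 3 cisplatin arrays as circles, the 2 electroporation arrays as filled squares and the group means as lines. Open squares give electroporation array 2 after leaving out its last listed spot: the ITGAM point moves from -0.65 to 0.03 while the other chains stay near their values.

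The ratios were loess-normalised log2 values, so 0 means equal signal in both channels after normalisation. A probe counted as above background on an array when at least 0.5 of its spots exceeded their local background by 2 SDs. Over all probes, 1535 to 1843 were above background in the untreated channel and 1216 to 1824 in the treated channel. Pairwise correlations between arrays over all probes were 0.17 to 0.55. All 6 of the measured melanocyte lineage markers (TYR, TYRP1, MLANA, MITF, SOX10 and S100B) were above background on every array. So were 3 of 5 leukocyte markers, 4 of 5 epithelial markers, 3 of 5 endothelial markers and the single muscle marker, MYOG. A signal above background therefore did not by itself separate lineages on this array. The labels do not say whether the arrays of a group were separate cultures. The p-values therefore reflect array-to-array spread alone, and that spread may be technical. In such bulk RNA, fewer cells with a transcript and less of it per cell cannot be told apart.

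The last listed spots of the second electroporation array stood apart and are treated before the results. Over the 2900 probes with 4 spots, the untreated signal of that last spot correlated with the median of the other 3 at 0.46, and 48.3% of these spots were off by more than 2-fold. For all other spot positions and arrays the correlations were 0.94 to 0.96, and 16.1% to 22.3% of spots were off by that much. Values below use all spots unless stated, and the main ones that moved without these spots are given both ways.

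Of the 6 chains, 5 were above background on every array in both channels. ITGB3 was the exception, with 4 of 20 spots above background in the untreated channel and 2 of 20 in the treated channel. Its ratios therefore carry little signal.

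**Figure D2:**
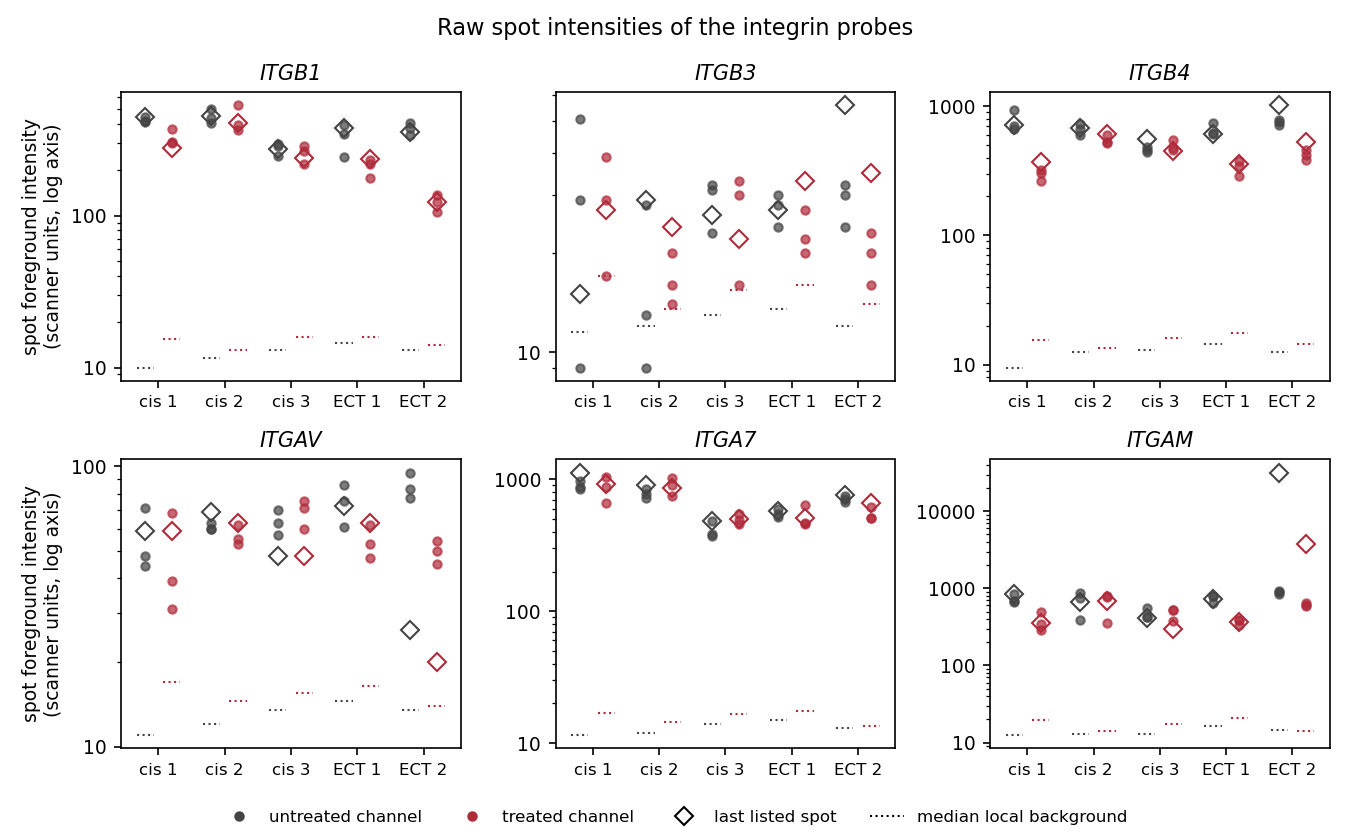
Median foreground intensity of every spot (log axis, scanner units) for each integrin probe on the 3 cisplatin (cis) and 2 electroporation (ECT) arrays, untreated in grey and treated in red, with dotted lines for the median local background. Open diamonds mark the last listed spot, which for ITGAM on ECT 2 reads 31757 in the untreated channel against 839 to 915 for the other 3. Brightness is not comparable between probes.

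ITGB1, the beta chain shared by most matrix-binding integrins, had log2 ratios of 0.13, 0.0011 and -0.14 on the 3 cisplatin arrays. On the electroporation arrays it had 0.0073 and -0.74, the latter being 1.67-fold lower than untreated. The groups overlapped, and the low value belonged to 1 array. On that array all 4 spots were below 0, from -0.85 to -0.63, with untreated foregrounds of 341 to 407 and treated foregrounds of 106 to 137. The value did not come from the last listed spot, since it was -0.77 without it. On the first electroporation array 1 of 4 ITGB1 spots lay above 0 and 3 below, with a range from -0.24 to 0.41.

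The limma mean for ITGB1 was -0.0021 ± 0.14 (SE, n = 3) after cisplatin, with an adjusted p of 0.997. After the combination it was -0.37 ± 0.17 (SE, n = 2), with a 95% confidence interval from -0.80 to 0.07 and an adjusted p of 0.551. The SD between the 2 electroporation arrays was 0.53, larger than their mean. Without electroporation array 1 the limma estimate was -0.74 with an adjusted p of 0.0374, the lone array being assumed to vary like the cisplatin arrays. In that setting 93 of the 3048 probes passed, against 0 with all arrays. Without electroporation array 2 it was 0.0073.

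ITGB4, the beta chain of the hemidesmosomal laminin receptor, had log2 ratios of -0.60, -0.14 and -0.03 after cisplatin and -0.28 and -0.25 after the combination. Both electroporation values lay within the cisplatin range. Of its 20 spots, 18 were below 0 and 2, both on cisplatin array 3, were above. Of all 3048 probes, 9.42% were below 0 on all 5 arrays, and ITGB4 was the member among them. The limma mean was -0.26 ± 0.11 (SE, n = 3) after cisplatin, adjusted p 0.486, and -0.26 ± 0.13 (SE, n = 2) after the combination, adjusted p 0.582. The largest shift, on cisplatin array 1, was 1.52-fold, and without that array the cisplatin mean was -0.09.

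ITGB3, the beta chain of the vitronectin receptor, had log2 ratios between -0.12 and 0.06 on the 5 arrays. Median foregrounds were 20.5 to 31 untreated and 18 to 28 treated, beside local backgrounds of 11.25 to 17. The added offset of 50 draws ratios of so dim a probe towards 0, so these values bound no change in the transcript. In the authors' deposited table its probe had no value on cisplatin array 1 and electroporation array 1. There it had -0.421 on cisplatin array 2, against -0.04 here, -0.103 on cisplatin array 3 and 0.028 on electroporation array 2.

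ITGAV, the alpha chain that pairs with beta 3 and several other beta chains, had log2 ratios of 0.08, -0.03 and 0.03 after cisplatin. After the combination they were 0.11 and -0.0083. The signs were mixed within both groups, with 10 of 20 spots on each side of 0. Its probe was dim, with median foregrounds of 47.5 to 80 over both channels, and 19 of 20 spots were above background untreated and 17 of 20 treated. The 95% confidence intervals ran from -0.07 to 0.12 after cisplatin and from -0.07 to 0.17 after the combination, on a scale that the offset compresses.

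ITGA7, the alpha chain of a muscle laminin receptor, had log2 ratios of 0.43, 0.19 and 0.19 after cisplatin and 0.45 and 0.23 after the combination. All 5 values were above 0, as were 19 of its 20 spots, and the groups overlapped. Of all 3048 probes, 6.66% were above 0 on all 5 arrays. The limma mean was 0.27 ± 0.07 (SE, n = 3) after cisplatin, with an unadjusted p of 0.0086 and an adjusted p of 0.291. After the combination it was 0.34 ± 0.08 (SE, n = 2), with an unadjusted p of 0.0074 and an adjusted p of 0.346. Without the last listed spot the value on electroporation array 2 was 0.17 and the combination mean 0.31.

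These positive ratios were relative to probes of like brightness. In raw foregrounds, the ITGA7 probe was brighter in the treated channel on cisplatin arrays 2 and 3, with means of 885 against 812 and 500 against 430. On the other 3 arrays it was dimmer, with means of 875 against 955, 518 against 561 and 574 against 725. With median centring in place of loess, the ITGA7 ratios were -0.03, 0.11 and 0.20 after cisplatin and 0.04 and -0.05 after the combination. That scaling moved the median of probes above background by -0.24, -0.05 and 0.01 on the cisplatin arrays and by -0.23 and -0.17 on the electroporation arrays. Against probes within 0.5 log2 units of its own brightness, ITGA7 was higher than 83.8% to 98.3% of them on each array. The sign of ITGA7 after the combination thus changed with the scaling, to a mean of -0.0053. Its place among probes of like brightness was taken from the median-centred ratios alone. Centring shifts all probes of an array alike and cannot change that order, so the place is a description and no check of the scaling.

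**Figure D3:**
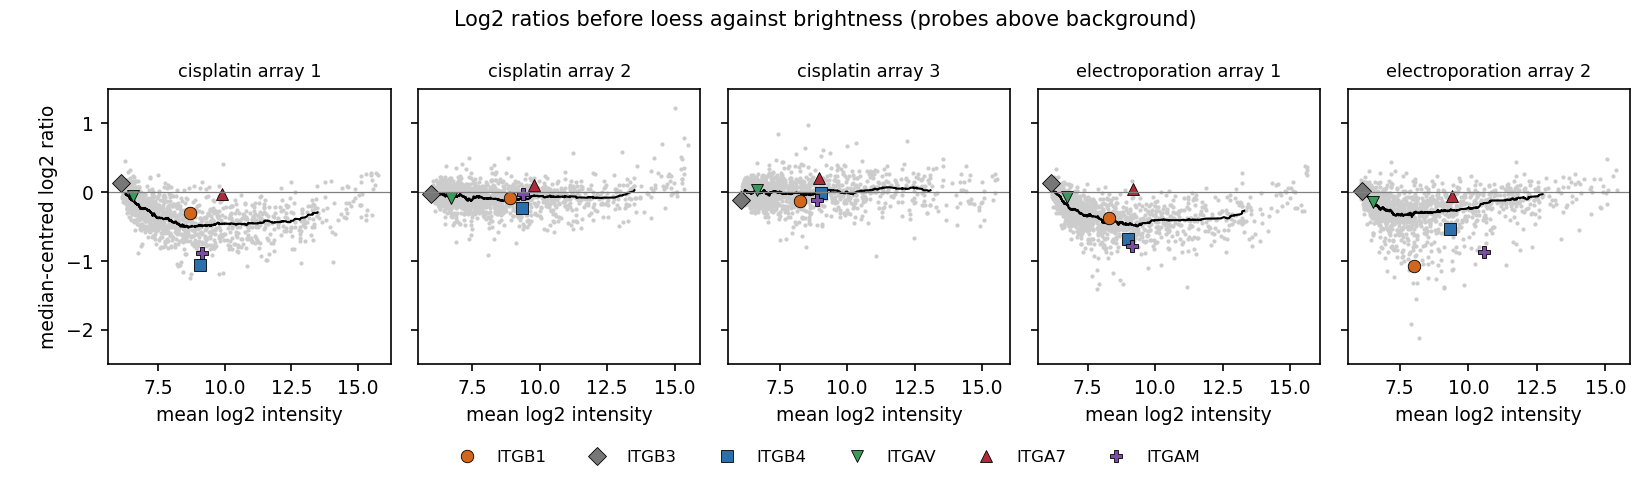
Median-centred log2 ratio before loess (vertical axis) against mean log2 intensity (horizontal axis) for the probes above background on each array (grey), with a running median over 100 probes (black) and the 6 integrin chains as coloured symbols. On cisplatin array 1 and both electroporation arrays the running median falls below 0 at the brightness of most chains, and ITGA7 lies above it on all 5 arrays.

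The same scaling lowered the other bright chains. On the second electroporation array, ITGB1 then had a ratio of -1.07, lower than all but 2.49% of the probes of like brightness. ITGB4 on cisplatin array 1 had -1.05, lower than all but 2.11%. The combination means were then -0.72 for ITGB1, -0.61 for ITGB4 and -0.82 for ITGAM, none past the adjusted threshold. The ITGAM mean kept the last listed spot of electroporation array 2, which is described below.

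ITGAM, the alpha chain of the myeloid receptor for complement fragments and fibrinogen, had log2 ratios of -0.44, 0.05 and -0.12 after cisplatin. After the combination it had -0.38 and -0.65. The groups overlapped. On electroporation array 2 the last listed spot read 31757 untreated and 3798 treated, a log2 ratio of -2.73, while the other 3 spots lay between -0.06 and 0.19. Without that spot the array's ratio was 0.03, and the 2 electroporation arrays then differed in sign. On the first electroporation array all 4 spots were below 0, from -0.41 to -0.31.

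The limma mean for ITGAM was -0.17 ± 0.10 (SE, n = 3) after cisplatin, with an adjusted p of 0.640, and -0.04 without cisplatin array 1. After the combination it was -0.51 ± 0.13 (SE, n = 2), unadjusted p 0.0079 and adjusted p 0.352. Without the last listed spots of that array the combination mean was -0.17 ± 0.14 (SE, n = 2), unadjusted p 0.257 and adjusted p 0.751. ITGB2, the chain with which alpha M pairs, was not among the measured genes. Of the leukocyte markers, CD14, ITGAX and CD8A were above background on every array, and CD3E and CD4 were not. The summed background-subtracted signal of the 5 leukocyte markers was 2290 to 5629 in the untreated channels. It was 1752 to 2227 after cisplatin and 2015 to 3343 after the combination. These sums were not scaled between channels and kept the last listed spots of electroporation array 2, so they do not show a change. The part of these markers in the ITGAM values was not tested.

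Counted together, 0 of 6 chains passed an adjusted p of 0.05 (limma, Benjamini-Hochberg over all 3048 probes) in the cisplatin comparison, and 0% of all probes did. The same counts, 0 of 6 and 0%, held for the combination and for the difference between treatments. At an unadjusted p under 0.05, ITGA7 was 1 of 6 after cisplatin, where 11.1% of all probes passed. After the combination ITGA7 and ITGAM were 2 of 6, where 9.97% passed, and 1 of 6 without the last listed spots of electroporation array 2, where 10.3% passed. For the difference it was 0 of 6, where 3.51% passed. The share was larger among the 1461 probes above background, a class that holds all chains but ITGB3. Of these, 296 passed after cisplatin, 243 after the combination and 93 for the difference. With median centring the unadjusted counts were 0 of 6 after cisplatin, where 11.2% of all probes passed, and 3 of 6 (ITGB1, ITGB4 and ITGAM) after the combination, where 34.4% passed. These counts kept the last listed spots, including that of ITGAM on electroporation array 2. The median of the 6 limma values was -0.02 after cisplatin and -0.13 after the combination, beside -0.0014 and -0.0066 over all probes. Without the last listed spots the combination median was -0.09.

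**Figure D4:**
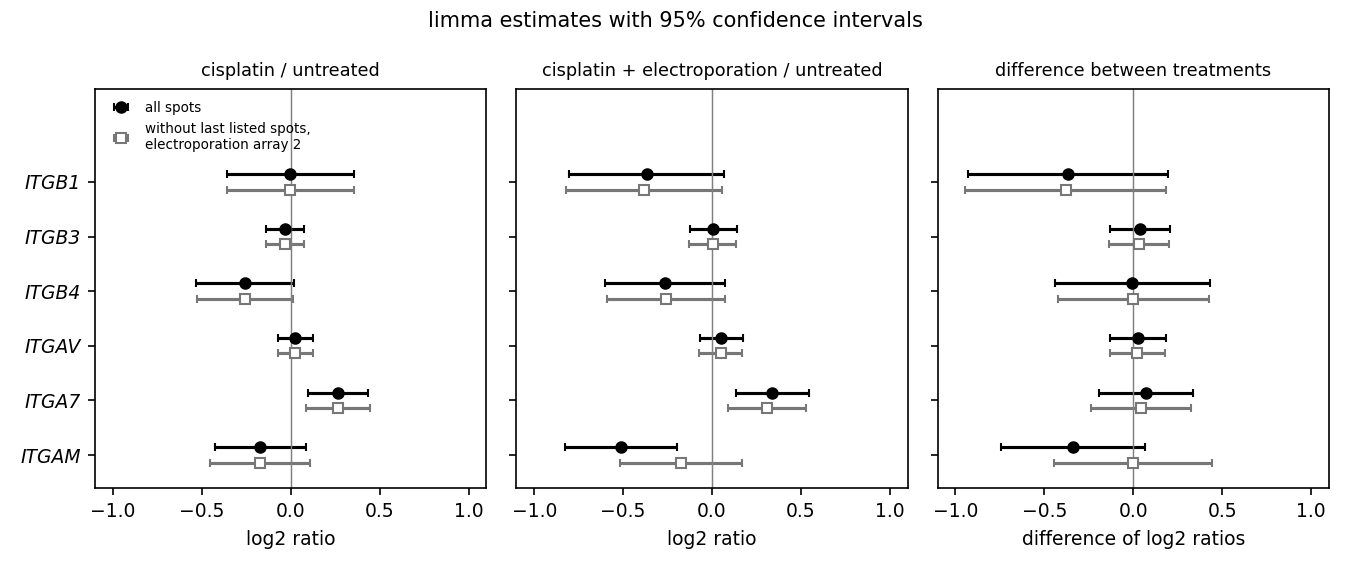
limma estimates (points) with 95% confidence intervals (bars) for each integrin chain, in log2 units, for both treatments against untreated cells and for the difference between treatments. Filled symbols use all spots and open symbols leave out the last listed spots of electroporation array 2. All intervals for the difference include 0, and the ITGAM interval after the combination includes 0 once those spots are left out.

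The comparison between treatments asked whether adding electroporation to cisplatin moved the integrin transcripts. The estimate was -0.37 ± 0.22 (SE) for ITGB1, with a 95% confidence interval from -0.93 to 0.20 over 5 arrays. For ITGAM it was -0.34 ± 0.16 (SE), with an interval from -0.75 to 0.07, and -0.0028 without the last listed spots. For ITGA7 it was 0.07, with an interval from -0.19 to 0.34, and 0.04 without the last listed spots. The intervals for ITGB4 ran from -0.44 to 0.43, for ITGAV from -0.13 to 0.18 and for ITGB3 from -0.13 to 0.21. In none of the 6 chains did both electroporation arrays lie outside the range of the cisplatin arrays on the same side, beside 10.7% of all probes below it and 7.32% above it. The adjusted p was 0.994 or higher for all 6, so a difference was not shown.

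The authors' deposited table gave ITGB1 log2 ratios of 0.164, 0.01 and -0.152 after cisplatin and 0.027 and -0.874 after the combination. For ITGA7 the authors' deposited table gave 0.468, 0.213 and 0.21, then 0.51 and 0.267. For ITGAV the authors' deposited table gave 0.33, -0.025 and 0.03, then 0.184 and -0.017. Its values on cisplatin array 1 and electroporation array 1 were larger than the 0.08 and 0.11 found here. For ITGAM on electroporation array 2 the authors' deposited table gave -0.634, close to the value with all spots here.

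Of 20 other integrin chains listed, 8 were measured, 6 of them above background. None passed the adjusted or the unadjusted threshold in any of the 3 comparisons. Their median was 0.01 after cisplatin and -0.04 after the combination, beside -0.0025 and -0.0088 over all named genes. ITGA5, the alpha chain of the fibronectin receptor, averaged 0.13 after cisplatin and 0.17 after the combination, and ITGAX, another partner of beta 2, averaged -0.20 and -0.18. ITGB6, the epithelial partner of alpha V, averaged -0.25 after the combination with all spots and 0.06 without the last listed ones, so that its value, like that of ITGAM, rested on 1 spot position. With median centring ITGA5 averaged -0.14 after the combination.

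Of 48 listed integrin ligands, 20 were measured and none passed the adjusted threshold. At the unadjusted threshold 2 were higher and 2 lower after cisplatin, and 0 higher and 3 lower after the combination. Over all probes the shares were 4.95% higher and 6.1% lower after cisplatin, and 2.99% and 6.99% after the combination. LAMB3, a chain of the laminin that the beta 4 receptor binds, had log2 ratios of -0.27, -0.17 and -0.23 after cisplatin and -0.38 and -0.71 after the combination. Its combination mean was -0.54 ± 0.08 (SE, n = 2), with a limma adjusted p of 0.153. LAMB1, a chain of laminins bound by beta 1 receptors, had a difference between treatments of -0.24 ± 0.06 (SE), with an adjusted p of 0.994.

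Of 58 listed genes of the adhesion complex and integrin signalling, 25 were measured. None passed the adjusted threshold, and at the unadjusted one 1 was higher and 2 lower after cisplatin, with 1 in each direction after the combination. Over all probes 4.95% were higher and 6.1% lower after cisplatin, and 2.99% and 6.99% after the combination. AKT1, a kinase active downstream of integrins, had 0.04, -0.05 and -0.05 after cisplatin, and 0.02 and -0.60 after the combination. GSK3B, a kinase inhibited by AKT1, averaged 0.11 after cisplatin and 0.22 after the combination, with a difference of 0.11 ± 0.07 (SE). With median centring its combination mean was -0.03.

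Of 22 listed membrane partners of integrins, 18 were measured and none passed the adjusted threshold. CD63, a tetraspanin that associates with beta 1 integrins, had log2 ratios of -1.02 and -0.89 after the combination, beside -0.34, -0.03 and 0.05 after cisplatin. The CD63 difference between treatments was -0.85 ± 0.13 (SE), adjusted p 0.994, and -0.90 without the last listed spots. LGALS3, a lectin that binds integrin glycans, averaged -0.37 after the combination and -0.73 with median centring. TGM2, which can bridge integrins and fibronectin, averaged 0.24 after cisplatin and 0.12 with median centring, and its difference of -0.17 between treatments became 0.0022 without the last listed spots.

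The named genes above background with the most similar ratios over the 5 arrays were found by the root mean square difference, as a description. For ITGB1 they were MAP2K5, TNFRSF25 and AKT1, at 0.07, 0.08 and 0.09, with values of -0.67, -0.80 and -0.60 on electroporation array 2. Without the last listed spots AKT1 stayed among the 3, joined by TNFSF9 and CDK2AP1. For ITGA7 they were JUND, CDC25C and NRP2, at 0.07, 0.12 and 0.12 with all spots, and the same 3 genes without the last listed ones. For ITGB4 they were CD28, YWHAZ and LILRB1, with CGB1 in place of LILRB1 without the last listed spots. For ITGAM they were LDHA, LRPAP1 and LAMB3 with all spots, and POLR2F, NEUROG3 and CCT8 without the last listed ones, with no gene in common. For ITGAV they were RFC3, DIRAS3 and CSTF3, and for ITGB3 CXCL9, DVL3 and TOP2B, all with ratios near 0. Without the last listed spots PAK5 and GTF3C1 replaced CXCL9 and DVL3.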

How the data were processed

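Scanner files gave the foreground and local background intensity of 12788 spots in 2 channels, as deposited by the authors. Channel 1 was read as Cy3 and channel 2 as Cy5. This reading was inferred from the channel order in the labels and the direction of the authors' deposited table. The authors' deposited table of log2 ratios (2560 probes, 1281 with a value on every array) follows channel 2 over channel 1, and its scaling is not given in the sources used here. Median foregrounds were corrected with normexp (offset 50) and normalised by loess (span 0.3) in limma 3.58.1 under R 4.3.3. Spots of a probe were averaged. One limma model over 5 arrays gave both group means and their difference (residual df 3), adjusted by Benjamini-Hochberg over 3048 probes. The steps were also run on simulated data with changes of 1 or 2 log2 units in bright probes. That run does not check smaller shifts, such as the means of the chains. Probe names came from the platform annotation, updated through RefSeq: 2192 probes had a gene and 856 had none. The number of arrays limits precision. The chains and gene lists were chosen with earlier results of these data known. From each list up to 4 genes with the largest shifts were open to naming.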

Additional observations from a re-analysis of the deposited data

How the results depend on the processing

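The count of integrin chains passing the adjusted threshold was 0 in all comparisons and settings except 1: without electroporation array 1 it was 1 (ITGB1) for the combination, so that over the arrays left out in turn it ran from 0 to 1. That setting left 1 array in the combination group. Of all 3048 probes, 0 passed for the combination in the main setting (loess, offset 50, all arrays and spots), and 35 with median centring. Loess with all arrays also gave calls in other settings: 10 without background correction and 1 with scale normalization between arrays. When only the 1461 probes above background were tested, 11 passed. Of 348 alternative values for the chains, 300 kept their direction and side of the threshold, 47 changed sign and 1 passed the threshold. ITGB4 and ITGAM kept their sign in all 20 settings after both treatments, and ITGA7 did after cisplatin. Some settings could not move a mean, so part of this agreement and of the 300 was fixed in advance. For cisplatin these were the background filter, the variance model and choices touching the electroporation arrays alone, where ITGA7 stayed at 0.27. The cause of the changes in sign or threshold was not tested. Most sign changes were of values near 0.

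Without background correction, ITGB1 after cisplatin was 0.013, ITGB3 after the combination -0.00083 and the ITGB4 difference between treatments 0.0073. With offset 0 these were 0.017, -0.011 and 0.014, and with plain subtraction 0.024, -0.054 and 0.019. With mean foregrounds ITGB1 after cisplatin was 0.00086 and ITGB3 after the combination -0.013, and the differences were -0.0043 for ITGAV and -0.011 for ITGB3. From the authors' deposited table ITGB1 after cisplatin was 0.0073, and the differences were 0.0075 for ITGB4 and -0.028 for ITGAV. With the first 3 listed spots alone ITGB1 after cisplatin was 0.028, and after the combination ITGB3 was -0.023 and ITGB6 0.073. With spot medians ITGB6 was 0.052, and the differences were 0.028 for ITGB4, 0.034 for ITGAM and 0.042 for TGM2. Without the last listed spots of electroporation array 2 ITGB6 was 0.062, and the differences were 0.00062 for ITGB4 and 0.0022 for TGM2.

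With median centring ITGAV was -0.031 after cisplatin and -0.10 after the combination, where ITGA7 was -0.0053, GSK3B -0.026 and ITGA5 -0.14. The differences were then -0.070 for ITGAV and -0.10 for ITGA7. With those last spots also left out, a setting chosen after seeing the data, the values were -0.031, -0.14, -0.027, -0.034 and -0.16, and the differences -0.11 and -0.12.

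Leaving out each array in turn, the cisplatin mean ran from -0.37 to -0.086 for ITGB4 and from -0.28 to -0.038 for ITGAM, both nearest 0 without cisplatin array 1. ITGB1 ran from -0.068 to 0.065 after cisplatin, from -0.74 to 0.0073 after the combination and from -0.74 to 0.0094 in the difference. ITGB3 ran from -0.076 to 0.012, from -0.022 to 0.036 and from -0.0051 to 0.083. ITGAV ran from -0.0083 to 0.11 after the combination and from -0.034 to 0.088 in the difference. The differences ran from -0.18 to 0.11 for ITGB4 and from -0.034 to 0.18 for ITGA7. After the combination AKT1 ran from -0.60 to 0.022 and ITGB6 from -0.69 to 0.19.

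Arrays 1 and 2 of both groups share only a number. Their deviations from the group means correlated at 0.27 and 0.09 over all probes, with 2 arrays in a group mirroring each other. Cisplatin array 3 and electroporation array 2, which share no number, correlated at 0.22, so the numbers do not establish a pairing. With the replicate block, 0 chains passed in any comparison, ITGB1 after cisplatin was 0.025, ITGB3 after the combination -0.019, and the differences were -0.0051 for ITGB3 and 0.11 for ITGB4.

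Among other genes after the combination, LAMB3 passed the adjusted threshold in 6 settings, at -0.82 without background correction and -0.80 with median centring among them, and CD63 in 4, at -0.95 without background correction and -1.26 with median centring and the last spots left out. ITGAX passed in that last setting, at -0.46. Of all 3048 probes, 10 passed without background correction, 35 with median centring and 71 in that last setting. Without electroporation array 1 the values, each from 1 array, were -0.60 for AKT1 and -0.69 for ITGB6. On electroporation array 2 the ITGB6 ratio was -0.06 without its last listed spot. Dim probes limit what the ITGB3 and ITGAV values can show.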
